A study of Mus musculus with 24 samples.

Results

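A set of 10 genes of insulin signalling and glycogen control were followed in the liver of mice without the major urinary protein (Mup) gene cluster and of wildtype (WT) mice. They were chosen by name for their place in the pathway, with earlier results of these data known. They are the insulin receptor Insr, the adaptors Irs1 and Irs2, the phosphatidylinositol 3-kinase (PI3K) subunit Pik3r1, the kinase Akt2, the transcription factor Foxo1, the secreted binding proteins Igfbp1 and Igfbp2, and the glycogen-targeting phosphatase subunits Ppp1r3b and Ppp1r3c. All 10 were among the 25746 genes listed in the RNAseq files, and all 10 passed the filter on low expression that left 12330 genes for testing.

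Insulin reaches the liver from the pancreas and binds its receptor on hepatocytes, which passes the signal through the adaptor proteins to PI3K and Akt. Active Akt keeps FOXO1 out of the nucleus, so that genes FOXO1 drives during fasting, such as Igfbp1 and Irs2, are held down after a meal. Akt also favours glycogen storage, in part through subunits that bring protein phosphatase 1 to the glycogen particle, where it activates glycogen synthase and shuts off glycogen breakdown. Transcripts of several of these genes are known to move with feeding and fasting in liver.

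One RNAseq library was made from the liver of each of 24 mice aged 12 weeks, with 6 mice each of male WT (mWT), male knockout (mKO), female WT (fWT) and female knockout (fKO). The KO mice were homozygous for a deletion of the whole Mup cluster that was made with CRISPR/Cas9 in C57BL/6N mice, and all descend from 1 male founder. Homozygous offspring came from crosses of heterozygous mice. KO and WT mice ate standard chow and were killed right after a body scan under anaesthesia that followed a short fast. The mice were therefore alike in strain, age and diet, and the state of feeding at death was not varied by design.

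Total counts ranged from 15361901 to 26261394 per library, and the members collected between 214 and 12143 reads in a library. The 22 Mup genes together took 1.70% to 3.68% of the counts in mWT and 0.344% to 0.555% in fWT mice, and at most 11 reads in any KO library, which matches the labels. The 6 hepatocyte markers summed to between 87367 and 143830 counts per 1000000 mapped reads (CPM) in every library, while markers of fat and of skeletal muscle, tissues in which several members are also expressed, summed to at most 0.157 and 0.159 CPM, with Lep at 0 in all 24 libraries. Among the 5 pancreas markers, Ins1 and Ins2 were at 0 in all libraries and Cpa1 and Prss2 in 23 of 24 each, while Cela1 was at 0 in no library and lay between 8.90 and 31.0 CPM.

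Per kilobase of exon, the secreted binding proteins were the most abundant members and the receptor adaptors the least. Mean levels over all 24 mice were 125 ± 60.5 CPM per kb (SD) for Igfbp1, 99.3 ± 22.98 for Igfbp2, 50.2 ± 17.8 for Ppp1r3b and 20.2 ± 9.26 for Ppp1r3c. The receptor Insr followed at 14.4 ± 1.32 CPM per kb, then Pik3r1 at 9.42 ± 1.62, Akt2 at 9.40 ± 0.558, Foxo1 at 6.94 ± 1.83, Irs2 at 5.98 ± 3.45 and Irs1 at 3.04 ± 0.941. Within this order, Igfbp1 and Igfbp2, Ppp1r3c and Insr, Pik3r1 and Akt2, Foxo1 and Irs2, and Irs2 and Irs1 differed by less than the larger of their 2 SDs.

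The bases ahead of the transcription start are shown for Irs1, Irs2 and Igfbp1, because these are the members whose upstream sequence held a motif read by FOXO factors in insulin-regulated genes. RefSeq promoters on GRCm38.p6 were at hand for 8 of the 10 members, with 13 starts in all, and Insr and Ppp1r3b were not among them. The 250 bases before each start were searched on both strands for CAAAACA and GTAAACA, which are known FOXO motifs, for the E-box CACGTG, which is bound by basic helix-loop-helix factors, and for the TATA box TATAAA. Capitals mark any of these motifs, and the sequences run 5′ to 3′ towards the start on the strand of the gene (chr1:82291440-82291689, minus strand, for Irs1; chr8:11008930-11009179, minus strand, for Irs2; chr11:7197537-7197786, plus strand, for Igfbp1).
Irs1: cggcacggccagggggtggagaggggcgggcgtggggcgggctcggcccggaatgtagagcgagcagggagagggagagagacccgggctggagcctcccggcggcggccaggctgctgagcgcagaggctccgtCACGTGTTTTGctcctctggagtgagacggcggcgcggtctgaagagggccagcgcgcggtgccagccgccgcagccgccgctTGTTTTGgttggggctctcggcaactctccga
Irs2: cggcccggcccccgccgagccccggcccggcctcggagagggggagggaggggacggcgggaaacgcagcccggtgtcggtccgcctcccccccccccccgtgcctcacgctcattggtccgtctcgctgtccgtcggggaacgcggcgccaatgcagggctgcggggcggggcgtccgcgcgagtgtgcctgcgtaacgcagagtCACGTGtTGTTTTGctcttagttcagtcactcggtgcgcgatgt
Igfbp1: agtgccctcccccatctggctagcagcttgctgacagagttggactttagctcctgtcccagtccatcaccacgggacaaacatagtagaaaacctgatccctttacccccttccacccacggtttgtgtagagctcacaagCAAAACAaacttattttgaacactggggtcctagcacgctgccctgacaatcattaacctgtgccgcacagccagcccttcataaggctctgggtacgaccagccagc
CAAAACA was found ahead of these 3 members and is present in 5.56% of the 32851 promoters of the table. In Igfbp1 it lies on the strand of the gene, 108 to 102 bases before the start. In Irs1 it is on the other strand, so that it reads TGTTTTG, at 111 to 105 and again at 32 to 26 bases before the start. In Irs2 it is also on the other strand, at 37 to 31 bases. Both adaptor genes carry an E-box at this place. In Irs1 the E-box, at 115 to 110 bases, shares its last 2 bases with the FOXO motif, and in Irs2, at 44 to 39 bases, it ends 1 base ahead of it. E-boxes without a FOXO motif were found ahead of 1 Igfbp2 start and of Ppp1r3c, and 6.02% of all promoters hold one. TATAAA was found ahead of 1 Pik3r1 start, on the other strand, against 12.4% of all promoters. GTAAACA was found in none of the members' 13 promoters and in 3.17% of all. These matches describe letters only, and binding was not measured.

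The first question was whether loss of the Mup cluster altered expression of these genes. None of the 10 members passed an adjusted p-value of 0.05 in mKO against mWT mice, in fKO against fWT mice, or for the difference between these effects, by the quasi-likelihood test of edgeR, with Benjamini-Hochberg adjustment over all 12330 genes. Over all genes, 0.211% passed in males, 0.0892% in females and 0.00811% for the difference. At an unadjusted p-value under 0.01, the cut-off the study used, the members again gave 0 in each comparison, where 3.52% of all genes passed in males, 0.876% in females and 1.16% for the difference. DESeq2 called 0 members in each of the 3 comparisons. How large an effect could have been missed differed widely between members, and is given below as the 95% interval of each fold change.

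**Figure D1:**
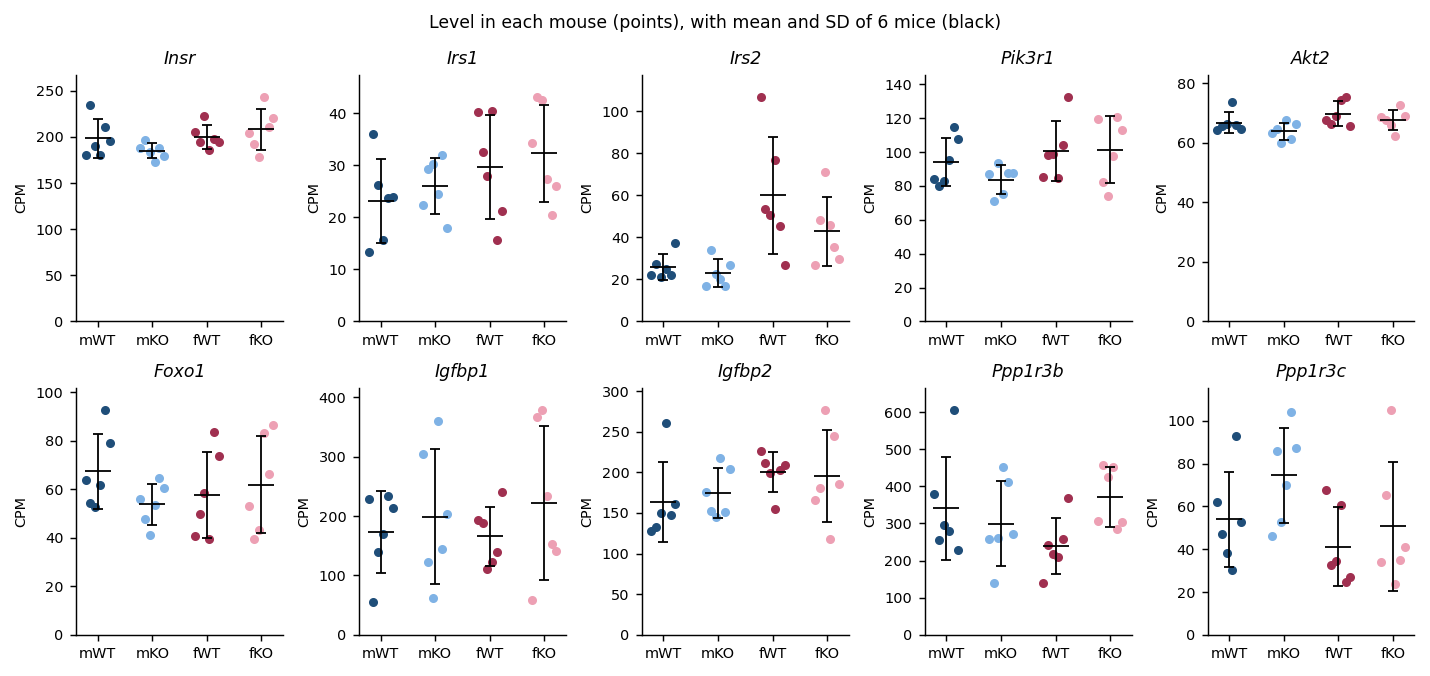
Expression of the 10 genes in CPM (vertical axes, starting at 0) in each of 24 mice, by group on the horizontal axes, with black bars for the mean and SD of the 6 mice of a group. Irs2 is the only one of the 10 genes with an adjusted p-value under 0.05 between the sexes (edgeR). For Irs2, 5 of 6 fWT mice lie above every mWT mouse. KO and WT mice overlap in every panel.

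Insr (chromosome 8, 3122061 to 3279617), the receptor itself, was the steadiest gene of the upper pathway apart from Akt2. Its lowest, median and highest values were 180, 193 and 235 CPM in mWT, 173, 186 and 197 CPM in mKO, 186, 196 and 223 CPM in fWT, and 179, 208 and 243 CPM in fKO mice. All 4 groups overlapped. KO over WT, the fold change was 0.930 in males (95% interval 0.837 to 1.03) and 1.04 in females (0.936 to 1.16), so that the intervals leave room only for changes of modest size. Since the liver was measured in bulk, fewer cells that express a gene and less RNA of it per cell cannot be told apart, here and in what follows.

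Irs1 and Irs2, which dock PI3K to the active receptor, varied far more. Irs1 (chromosome 1, 82233101 to 82291416) was 13.4, 23.8 and 36.1 CPM (lowest, median, highest) in mWT and 18.1, 26.9 and 32.1 CPM in mKO mice. In females it was 15.7, 30.2 and 40.5 CPM in fWT and 20.5, 30.8 and 43.2 CPM in fKO mice. No group stood apart. The fold change of Irs1 was 1.13 in males (95% interval 0.785 to 1.62) and 1.09 in females (0.762 to 1.55). Irs2 (chromosome 8, 10984681 to 11008458) was 21.2, 23.6 and 37.2 CPM in mWT and 16.8, 21.3 and 33.9 CPM in mKO mice, with 3 of 6 mKO mice below every mWT mouse. In fWT mice it was 26.9, 52.0 and 107 CPM, and in fKO mice 26.8, 40.4 and 71.1 CPM. The female groups were thus wide and overlapping, with the highest value in fWT mouse 1. Irs2 had a fold change of 0.885 in males (0.585 to 1.34) and of 0.713 in females (0.477 to 1.07, unadjusted p = 0.0948, edgeR). The female value lay closer to 1 without fWT mouse 1, at a log2 fold change of -0.25 against -0.49 with all mice. With each mouse left out in turn, it ran from -0.69 to -0.25 (unadjusted p from 0.0202 to 0.35, edgeR).

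Below the adaptors, Pik3r1 encodes the regulatory p85 alpha subunit of PI3K and Akt2 the Akt form best known for insulin action in liver. Pik3r1 (chromosome 13, 101680563 to 101768217) was 80.1, 89.7 and 115 CPM in mWT and 70.9, 87.3 and 93.5 CPM in mKO mice, and 84.6, 98.7 and 133 CPM in fWT and 74.2, 106 and 121 CPM in fKO mice. Again the groups overlapped, and the fold change was 0.889 in males (0.744 to 1.06) and 1.01 in females (0.844 to 1.20). Akt2 (chromosome 7, 27591552 to 27640826) was the least variable of all members. It was 64.2, 65.9 and 73.8 CPM in mWT, 59.9, 64.0 and 67.6 CPM in mKO, 65.5, 68.3 and 75.4 CPM in fWT, and 62.3, 68.2 and 72.6 CPM in fKO mice. Its fold change of 0.956 in males (0.884 to 1.03) and 0.971 in females (0.898 to 1.05) had the narrowest intervals of the 10 genes.

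Foxo1 (chromosome 3, 52268336 to 52353221), the transcription factor that Akt restrains, was 52.7, 62.6 and 92.5 CPM in mWT and 41.2, 54.7 and 64.4 CPM in mKO mice. In females it was 39.7, 54.1 and 83.3 CPM in fWT and 39.4, 59.6 and 86.5 CPM in fKO mice. Of the 6 mKO mice, 2 lay below every mWT mouse, and the female groups covered almost the same range. The fold change was 0.80 in males (95% interval 0.590 to 1.08) and 1.08 in females (0.795 to 1.45).

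Igfbp1 and Igfbp2 encode hepatic proteins that bind insulin-like growth factors in blood, and Igfbp1 is a classical gene that insulin turns down. Igfbp1 (chromosome 11, 7197782 to 7202546) showed the widest scatter of all members. Its lowest, median and highest values were 54.9, 191 and 233 CPM in mWT, 61.5, 174 and 360 CPM in mKO, 111, 164 and 240 CPM in fWT, and 57.8, 193 and 378 CPM in fKO mice. Within fKO, the highest mouse had 6.54 times the level of the lowest. The fold change was 1.15 in males with an interval from 0.611 to 2.17, and 1.34 in females with one from 0.71 to 2.52, so that a doubling could not have been told from no change. Igfbp2 (chromosome 1, 72824503 to 72852474) was 128, 149 and 260 CPM in mWT and 145, 164 and 218 CPM in mKO mice, and 155, 206 and 226 CPM in fWT and 118, 183 and 277 CPM in fKO mice. The KO and WT groups overlapped in both sexes, with fold changes of 1.07 (0.826 to 1.38) in males and 0.974 (0.754 to 1.26) in females.

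Ppp1r3b, also called GL, is the main subunit that targets protein phosphatase 1 to glycogen in liver, and Ppp1r3c, also called PTG, is a related subunit of wider tissue range. Ppp1r3b (chromosome 8, 35375739 to 35388139) was 227, 288 and 605 CPM in mWT and 139, 266 and 452 CPM in mKO mice. In females it was 139, 229 and 368 CPM in fWT and 284, 364 and 458 CPM in fKO mice. All 6 fKO mice exceeded the median of the fWT mice and 3 exceeded every fWT mouse, while in males 2 of 6 mKO mice lay above the mWT median. The fold change was 0.877 in males (0.595 to 1.29) and 1.55 in females (1.05 to 2.29).

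The female value of Ppp1r3b was the largest KO difference among the members, at a log2 fold change of 0.64 (SE 0.271, unadjusted p = 0.0287, adjusted p = 0.929, edgeR), and it did not pass the threshold. Its KO effect in males minus that in females was -0.82 on the log2 scale (SE 0.382, unadjusted p = 0.0426, adjusted p = 0.83, edgeR), which did not pass either. When each sex was fitted on its own, the unadjusted p-value in females was 0.00817 and the adjusted one 0.947 (edgeR). Without fWT mouse 6, the highest of its group, the unadjusted p-value was 0.00829 (edgeR). These were the lowest p-values among the alternatives. With 1 mouse left out, the female log2 fold change ran from 0.52 to 0.80 and the unadjusted p-value went up to 0.0708 (edgeR). Under the other settings the unadjusted p-value went up to 0.0329 (edgeR or DESeq2). Ppp1r3c (chromosome 19, 36731731 to 36736653) was 30.3, 49.8 and 93.0 CPM in mWT and 46.4, 78.0 and 104 CPM in mKO mice, and 24.6, 33.6 and 67.6 CPM in fWT and 23.7, 38.1 and 105 CPM in fKO mice. In both sexes 5 of 6 KO mice lay above the WT median, yet the ranges overlapped broadly. The fold change was 1.38 in males (0.832 to 2.30) and 1.23 in females (0.739 to 2.04).

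**Figure D2:**
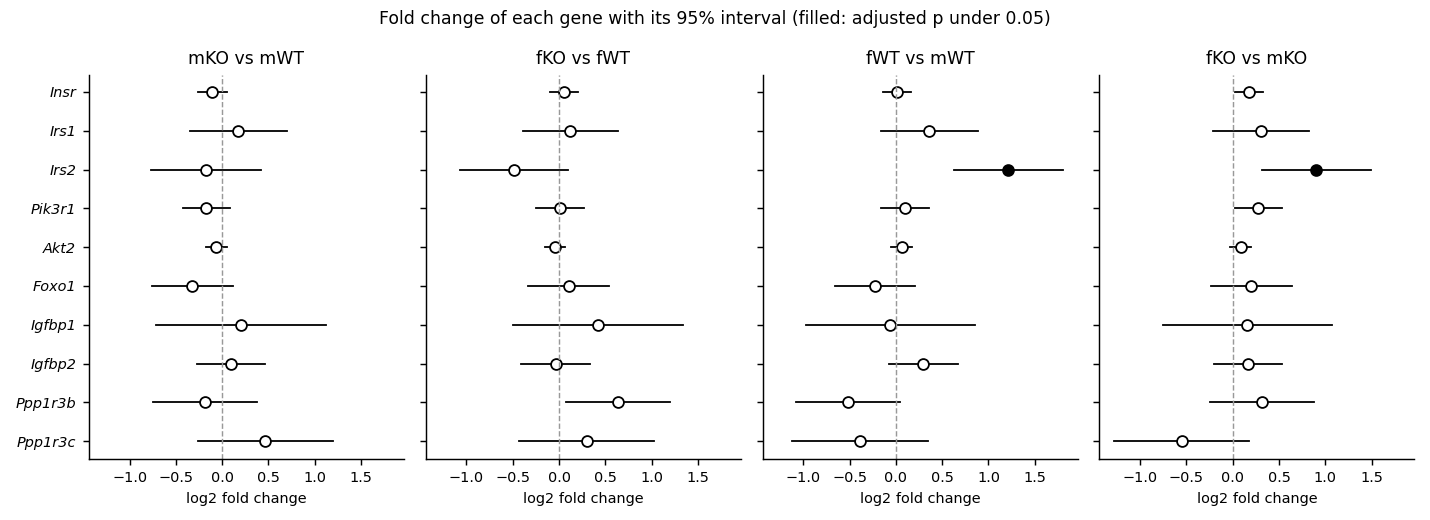
Log2 fold change of each of the 10 genes (points) with its 95% interval (lines) in 4 comparisons, 1 per panel, on a common horizontal axis. Filled points mark an adjusted p-value under 0.05, which Irs2 alone reached, at 1.21 in fWT against mWT and 0.90 in fKO against mKO mice.

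The 4 groups also allowed female mice to be compared with male mice of the same genotype. Sex differences were common in these livers, with 17.3% of all genes passing an adjusted p-value of 0.05 in fWT against mWT mice (8.81% higher and 8.51% lower in females) and 14.4% in fKO against mKO mice (7.13% higher and 7.26% lower). Among the 10 members, Irs2 passed in both comparisons and the other 9 in neither, a share of 1 in 10 that lies near the background.

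Irs2 rose in females. The 6 fWT mice averaged 59.9 ± 27.9 CPM (SD) and the 6 mWT mice 25.8 ± 6.05 CPM (SD). The log2 fold change was 1.21 (SE 0.285, adjusted p = 0.00485, edgeR), which is a fold of 2.32 (95% interval 1.54 to 3.50). All 6 fWT mice exceeded the mWT median and 5 exceeded every mWT mouse. Among KO mice, the 6 females averaged 42.8 ± 16.3 CPM (SD) and the 6 males 22.8 ± 6.64 CPM (SD). Here the log2 fold change was 0.90 (SE 0.285, adjusted p = 0.0358, edgeR), which is a fold of 1.87 (1.24 to 2.82). Again all 6 fKO mice lay above the mKO median, and 4 lay above every mKO mouse.

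The difference in WT mice passed under all 8 alternatives that change the fit and without any 1 of the 24 mice, with adjusted p-values between 0.00037 and 0.016 (edgeR or DESeq2). That in KO mice was less firm. Its adjusted p-value was 0.0584 without a filter on low counts, 0.0622 with the mouse number as a block, and between 0.0579 and 0.104 without mKO mouse 1, 3, 4 or 5 or fKO mouse 2, 3 or 4 (edgeR), while the log2 fold change stayed between 0.70 and 1.05. The size of the sex difference did not differ detectably between genotypes (0.31 on the log2 scale, 95% interval -0.52 to 1.14).

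Markers of other liver cells also differed between the sexes. The 4 Kupffer cell markers summed to between 63.0 and 128 CPM in mWT and between 114 and 211 CPM in fWT mice, and to between 62.3 and 170 CPM in mKO and between 96.2 and 167 CPM in fKO mice. The 2 erythroid markers summed to between 137 and 218 CPM in all male and between 30.9 and 49.0 CPM in all female mice. Most of this gap lay in Alas2, with means of 132 and 126 CPM in mWT and mKO against 12.1 and 14.1 CPM in fWT and fKO mice, while the globin gene Hbb-bs had means of 35.5 and 48.5 against 28.5 and 25.7 CPM. No marker of either list was at 0 in any library, and their part in the sex difference of Irs2 was not tested.

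Other members gave sex differences that did not pass. Ppp1r3b had a fold of 0.701 in fWT against mWT (95% interval 0.475 to 1.03) and of 1.24 in fKO against mKO mice (0.841 to 1.83). Insr had 1.01 (0.906 to 1.12) and 1.13 (1.01 to 1.25), and Pik3r1 had 1.07 (0.896 to 1.28) and 1.21 (1.01 to 1.45), in the same order. Adjusted p-values of Insr and Pik3r1 in KO mice were 0.125 and 0.142 (edgeR). For Igfbp2 the fold in WT mice was 1.23 (0.951 to 1.59, adjusted p = 0.274, edgeR). All 6 fWT mice exceeded the mWT median of Igfbp2, but the highest of the male values, 260 CPM in mWT mouse 4, lay above every fWT mouse. Without that mouse the log2 fold change of Igfbp2 was 0.48 and passed (adjusted p = 0.0402, edgeR), against 0.30 with it.

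Most members varied widely from mouse to mouse. Within groups, the coefficient of variation (CV) averaged 46.3% for Igfbp1, 43.6% for Ppp1r3c, 34.3% for Irs2, 33.2% for Ppp1r3b, 29.6% for Irs1, 25.5% for Foxo1, 22.2% for Igfbp2 and 15.6% for Pik3r1, while the median of all genes tested was 13.4%. Insr and Akt2 were steadier than that median, at 8.07% and 5.27%. CVs fall with expression level, so each member was set beside the genes whose mean lay within a factor of 2 of its own. Among these, 98.9% had a lower CV than Ppp1r3c (3045 genes), 98.1% than Igfbp1 (1101 genes) and 97.9% than Irs2 (3659 genes). The share was 96.7% for Irs1, 95.1% for Foxo1, 95.02% for Ppp1r3b, 90.6% for Igfbp2 and 84.4% for Pik3r1. At the other end it was 28.6% for Insr and 3.05% for Akt2. The receptor and its distal kinase were thus among the steadier genes of their level, and the adaptors, the transcription factor, Igfbp1 and the glycogen-targeting subunits among the more variable.

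**Figure D3:**
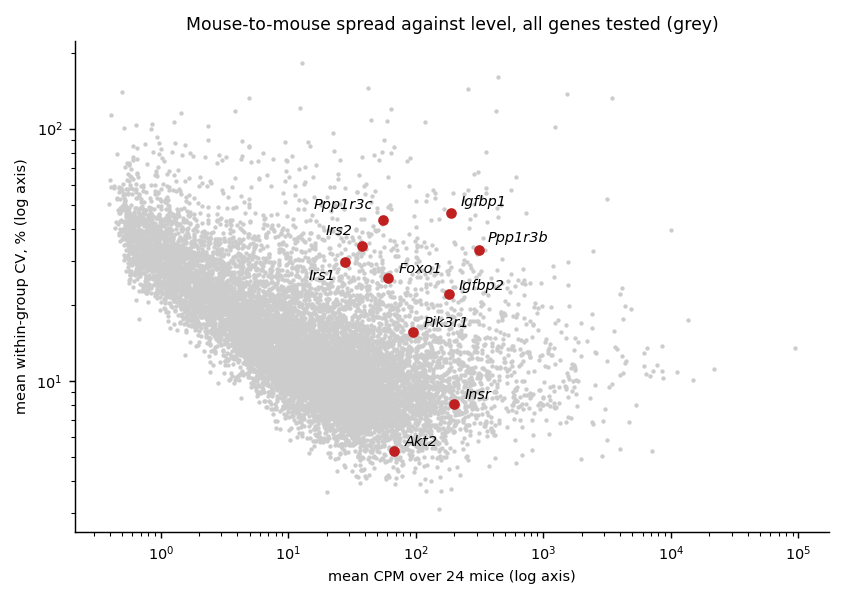
Mean within-group CV in percent against mean CPM over 24 mice, both on log axes, for 12330 genes (grey) and the 10 members (red). Of the members, 8 lie above the median CV of 13.4%, with Igfbp1 highest at 46.3%, and Akt2 and Insr lie below it.

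Whether members varied together was examined across the 24 mice after the mean of each group had been removed, so that mean differences between sexes or genotypes did not enter. Of 45 pairs, 3 passed an adjusted p-value of 0.05 in a two-sided permutation test within groups (100000 resamples). Among all 76008285 pairs of the genes tested, 1.4% had an r at least as far from 0 as the weakest of these 3 pairs, and nothing particular to the members is read from their number. Irs2 fell as Pik3r1 rose (Pearson r = -0.67, permutation p = 0.00124, adjusted p = 0.0372, Spearman rho = -0.63, permutation p = 0.00376, adjusted p = 0.0564). Pik3r1 rose with Foxo1 (r = 0.68, permutation p = 0.00217, adjusted p = 0.0372, rho = 0.67, permutation p = 0.00267, adjusted p = 0.0564). Irs1 fell as Foxo1 rose (r = -0.65, permutation p = 0.00248, adjusted p = 0.0372, rho = -0.71, permutation p = 0.0008, adjusted p = 0.0360). Only this last pair passed by rank as well.

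Leaving out the 2 mice farthest from the median of the first gene named gave r = -0.57, 0.62 and -0.65 for the 3 pairs in turn. By sex, Irs2 and Pik3r1 had r = -0.08 in the 12 males and r = -0.91 in the 12 females, and Irs1 and Foxo1 had r = -0.21 and r = -0.90. Both negative values were thus far larger in the female mice, and the difference between the sexes was not tested. Within mWT alone, Irs2 and Pik3r1 had the opposite sign, with r = 0.31, against r = -0.50 in mKO, -0.95 in fWT and -0.93 in fKO mice. Pik3r1 and Foxo1 had r = 0.64 in males and 0.70 in females, although within mKO alone r was 0.06. Over all groups together, the r of each pair kept its sign without any 1 mouse (range -0.78 to -0.58 for Irs2 and Pik3r1, 0.64 to 0.76 for Pik3r1 and Foxo1, -0.71 to -0.58 for Irs1 and Foxo1). The call was lost more often than kept, with adjusted permutation p-values under 0.05 in 11, 8 and 8 of the 24 cases.

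**Figure D4:**
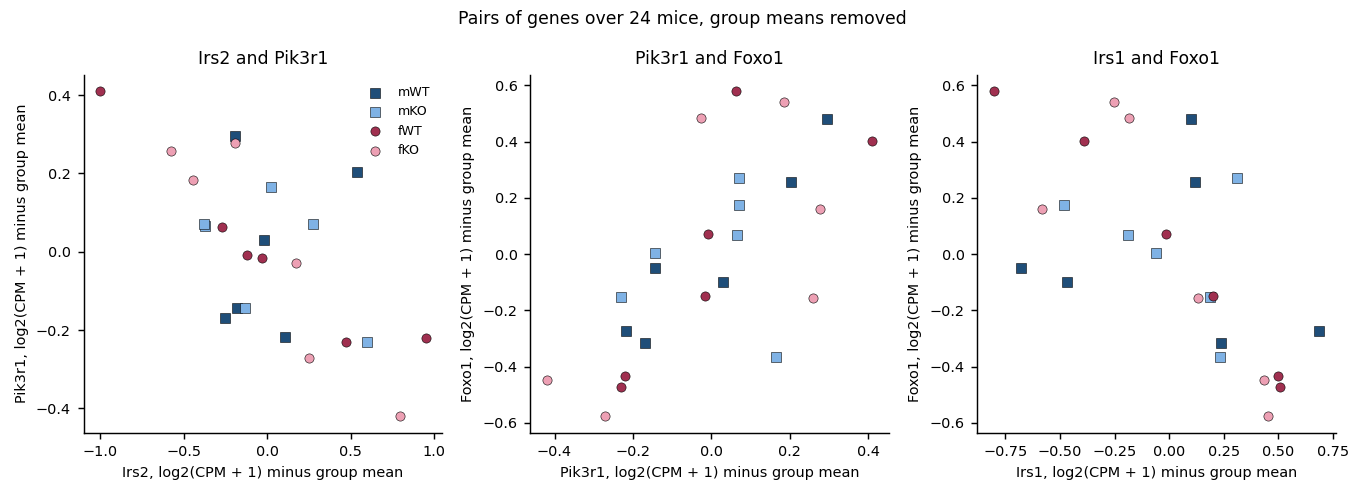
Each point is 1 of 24 mice and each axis the log2(CPM + 1) of a gene minus its group mean, for the 3 pairs that passed, with squares for males and circles for females. In the left and right panels the female points run from upper left to lower right (r = -0.91 and -0.90), while the male points scatter (r = -0.08 and -0.21).

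The genes nearest to each member over the same 24 values, by Pearson r across all genes tested, are given as a description. They were Mia2 for Insr (r = 0.85), Gas1 for Irs1 (0.86), Efna1 for Irs2 (0.79), Pfkfb2 for Pik3r1 (0.85), Mcm2 for Akt2 (0.76), Il6ra for Foxo1 (0.92), Irf2bp2 for Igfbp1 (0.84), Ccnd1 for Igfbp2 (0.80), Slc45a3 for Ppp1r3b (0.84) and Zfp707 for Ppp1r3c (0.81). No member was the nearest gene of another. Gas1 encodes a membrane protein tied to growth arrest, Il6ra the interleukin 6 receptor and Ccnd1 cyclin D1.

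Genes that FOXO1 is known to drive were followed beside the members in the same way. Pck1, the gene of gluconeogenesis that encodes cytosolic phosphoenolpyruvate carboxykinase, was picked out after its values were seen. It had r = 0.88 with Foxo1 (0.75 in males, 0.96 in females), r = -0.80 with Irs1 (-0.67 and -0.90), r = -0.53 with Irs2 and r = 0.34 with Igfbp1. G6pc, the catalytic subunit of glucose 6-phosphatase, had r = 0.05 with Foxo1 and r = 0.54 with Igfbp1, and Pdk4, which restrains pyruvate oxidation in fasting, had r = -0.19 and 0.62. Foxo1 and Igfbp1 had r = 0.12 with each other. Over the 12 tested genes of the list of FoxO factors and FOXO1 targets that are not members, r ran from -0.65 to 0.88 with Foxo1 (median 0.19) and from -0.22 to 0.62 with Igfbp1 (median 0.24). All these values rest on the same 24 libraries and carry no test.

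Around the members, 109 further genes of the insulin and glycogen pathways were listed in 7 groups, and 97 of them passed the filter. None passed an adjusted p-value of 0.05 in mKO against mWT, fKO against fWT or the difference of the effects (edgeR). With an unadjusted p-value under 0.01, 1 was higher and 2 were lower in mKO mice, 1 was lower in fKO mice and 0 passed for the difference. The median log2 fold change of the 97 genes was -0.049 in males and -0.0026 in females, against -0.0021 and -0.0026 for all genes tested.

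In males, Apoc3, an apolipoprotein gene that insulin represses through FOXO1, averaged 1161 ± 102 CPM (SD) over the 6 mWT and 1436 ± 128 CPM (SD) over the 6 mKO mice (log2 fold change 0.31, SE 0.0852, unadjusted p = 0.00131, adjusted p = 0.143, edgeR). DESeq2 gave it an adjusted p-value of 0.0259, the only call among these genes in a KO comparison by that tool. Grb10, an adaptor that dampens the insulin receptor, had a log2 fold change of -0.67 (SE 0.190, unadjusted p = 0.00157, adjusted p = 0.152, edgeR), and Phlpp2, a phosphatase that acts on Akt, one of -0.51 (SE 0.158, unadjusted p = 0.00321, adjusted p = 0.197, edgeR). In females, Pik3cd, a catalytic PI3K subunit best known from blood cells, had 2.47 CPM in fWT and 1.60 CPM in fKO mice (log2 fold change -0.62, SE 0.223, unadjusted p = 0.00977, adjusted p = 0.929, edgeR). The 4 Kupffer cell markers also had lower means in fKO than in fWT mice (60.9 and 46.8 CPM for Cd5l, 62.8 and 49.9 CPM for Clec4f, 11.98 and 10.8 CPM for Adgre1, 23.3 and 18.7 CPM for Vsig4, fWT first), with summed ranges that overlap, and their part in the Pik3cd values was not tested. In each of the 7 groups of genes the number called in a KO comparison by edgeR was 0.

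Between the sexes, 9 of the 97 genes rose and 8 fell in fWT against mWT mice, and 10 rose and 5 fell in fKO against mKO mice. These 17 and 15 calls are near the shares of all genes, 17.3% and 14.4%. In all, 24 genes passed in at least 1 of the comparisons, which share no mice, and 8 passed in both, and all 24 had the same direction in both. The matching shares over all genes were not computed, so nothing particular to the pathway is read from these counts. The group of insulin-like growth factor (IGF) binding and IGF axis genes held 4 genes that rose and 1 that fell among 8 tested in WT mice, and 5 that rose and 0 that fell in KO mice. The median log2 fold change of this group was 0.23 and 0.35, and that of all genes 0.0020 and 0.0045. Markers of sinusoidal endothelium and of stellate cells lay on the same side, while the erythroid markers given above lay higher in males. The 4 markers of sinusoidal endothelium summed to between 101 and 122 CPM in mWT and 113 and 150 CPM in fWT mice, and to between 100.3 and 126 CPM in mKO and 107 and 156 CPM in fKO mice. The 4 stellate cell markers summed to between 57.4 and 129 CPM in mWT and 93.1 and 129 CPM in fWT mice, and to between 60.7 and 91.3 CPM in mKO and 64.6 and 114 CPM in fKO mice. All 8 markers had higher means in females of both genotypes, none was at 0 in any library, and the ranges of their sums overlap between the sexes. Their part in the differences of the IGF genes was not tested.

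Igfbp5, a binding protein of the IGFs, rose most, at 22.2 CPM in fWT and 10.7 CPM in mWT mice (log2 fold change 1.06, SE 0.303, adjusted p = 0.0184, edgeR), and at 19.6 CPM in fKO and 7.20 CPM in mKO mice (1.44, SE 0.310, adjusted p = 0.00249, edgeR). Igfals, which carries IGFs in blood as part of a ternary complex, rose from 48.1 to 77.3 CPM in WT (0.68, adjusted p = 0.00133, edgeR) and from 45.1 to 70.2 CPM in KO mice (0.64, adjusted p = 0.0025, edgeR). Igf1r, the IGF receptor, rose in WT mice (0.58, adjusted p = 0.0326, edgeR), at a low level of 3.26 CPM in fWT and 2.2 CPM in mWT mice. In KO mice Igfbp4 rose by 0.35 on the log2 scale (adjusted p = 0.00203, edgeR).

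Among the signalling genes, Pik3cd rose in fWT against mWT mice (0.88, adjusted p = 0.00937, edgeR), as did Inpp5d, a lipid phosphatase of blood cells (0.66, adjusted p = 0.0203, edgeR). The Kupffer cell markers given above also lay higher in fWT than in mWT mice, with ranges that overlap, and their part in these differences was not tested. Pik3r3, a regulatory PI3K subunit, fell by 0.92 in fKO against mKO mice (adjusted p = 0.00314, edgeR). Gab1, a docking adaptor, rose by 0.38 in KO mice (adjusted p = 0.0337, edgeR). Ide, which degrades insulin, fell in females of both genotypes, by 0.41 in WT (adjusted p = 8.82e-06, edgeR) and by 0.34 in KO mice (adjusted p = 9.47e-05, edgeR). Apoc3 rose by 0.48 in fWT against mWT mice (adjusted p = 0.00019, edgeR).

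Among the glycogen genes, Pygb, the brain form of glycogen phosphorylase, rose in females of both genotypes (0.45, adjusted p = 0.0437 in WT and 0.46, adjusted p = 0.0437 in KO mice, edgeR), and its mean lay between 2.997 and 4.13 CPM in the 4 groups. Of the other genes listed for the glycogen-targeting forms of protein phosphatase 1, 5 passed the filter. These were the targeting subunits Ppp1r3e and Ppp1r3g and the catalytic subunits Ppp1ca, Ppp1cb and Ppp1cc. None of the 5 was called in any of the 5 comparisons. The 6 genes induced by insulin, among them Srebf1, gave no call either.

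**Figure D5:**
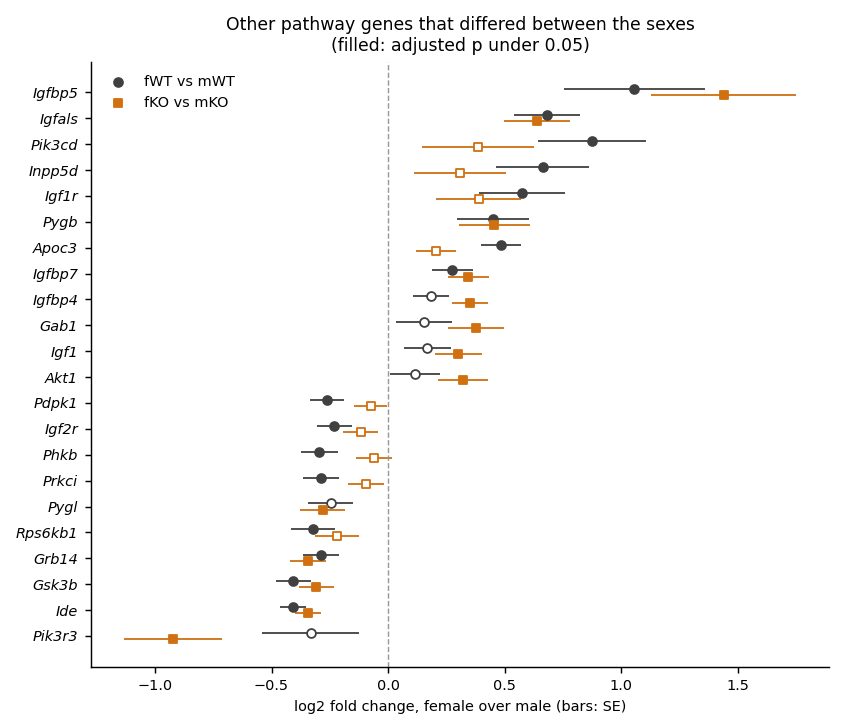
Log2 fold change of female over male mice with its SE (bars) for 22 of the 24 further pathway genes that passed in WT mice (circles) or KO mice (squares), with filled points where the adjusted p-value is under 0.05. All 22 lie on the same side of 0 in both comparisons, from Igfbp5 at 1.06 and 1.44 to Pik3r3 at -0.33 and -0.92. The share of all genes that do so was not computed.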

How the data were processed

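The 10 genes, the gene lists and the motifs were chosen with earlier results of these data known. Per the labels and the study's methods, the authors made stranded mRNA libraries with the TruSeq kit from total RNA of snap-frozen liver, sequenced them as single-end reads in 1 multiplexed run, used fastp 0.20 for trimming, STAR 2.7a for alignment to GRCm38.p6 and featureCounts for counting. The deposited values are raw counts per Ensembl gene, with no normalization and no filter. The annotation release, strand setting and handling of multiply mapped reads are not given in the sources used here. Genes that overlap members had at most 8 counts in a library.

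Symbols and coordinates came from GENCODE M21 (GRCm38), which matched 25712 of the 25746 genes. The label of each library gave its group and mouse number. All pairs of mice within a group differed by more than sampling noise (lowest chi-square per gene 7.68). The count test was run with edgeR 4.0.16 in R 4.3.3. The filter required 0.66 CPM or more in 6 or more of the 24 libraries, TMM scaled the library sizes, and a robust quasi-likelihood model with 1 mean per group was fitted to all 24 libraries. P-values were adjusted over all 12330 genes by the Benjamini-Hochberg method, and intervals are 95% t intervals from the fit. CPM values carry the TMM scaling, and CPM per kb divides them by merged exon length. P-values set a difference between groups, or a correlation, against the spread between mice. Pairs were tested on log2(CPM + 1) in Python 3.11.15. Both procedures were tested on simulated data.

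Named were all 10 members, up to 8 further pathway genes per sex comparison with the largest change among those called, up to 5 per KO comparison with an unadjusted p-value under 0.01, and the nearest gene of each member. Alternatives were DESeq2 1.42.0, its size factors, no filter, filterByExpr, non-robust dispersions, edgeR 4 deviances, removal of the Mup genes, the mouse number as a block, each sex alone and each mouse left out, and for pairs a pseudocount of 0.1, Spearman's rho and each sex alone. Leaving out each mouse in the pair test was chosen after seeing the data. Figures were drawn with matplotlib 3.10.9. A planned comparison of protein sequences was not run. Values of a few pathway genes are not reported here.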

Additional observations from a re-analysis of the deposited data

Results flagged for a closer look

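In 2 of the 40 sets of 6 values (10 genes in 4 groups), the gap between the most extreme mouse and its neighbour took a larger share of the group's range than the 95% critical value of Dixon's test for 6 values. Chance gives about 1 such case in 20 sets. Both were the same animal, mWT mouse 4. Akt2 was 73.8 CPM in this mouse and 66.4 CPM in the next highest mWT mouse, a gap of 0.778 of the range. Igfbp2 was 260.2 CPM, and 161 CPM in the next highest mouse, a gap of 0.75 of the range. Over the 12 males, Akt2 and Igfbp2 had r = 0.90 after removal of group means (0.93 in mWT, this mouse included, and 0.87 in mKO). Over the 12 females r was 0.16, from opposite signs in the groups (-0.65 in fWT and 0.60 in fKO). The pair did not pass over all mice (r = 0.49, permutation p = 0.0219, adjusted p = 0.148). Without the 2 mice farthest from the median of Akt2, r was 0.36. A difference between the KO effects of the sexes passed an adjusted p-value of 0.05 for none of the 10 members (edgeR), and none had an unadjusted p-value under 0.01, the lowest being 0.0426 for Ppp1r3b. DESeq2 also gave 0 calls.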

How the results depend on the processing

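With the mouse number as a block, the Irs2 difference between fKO and mKO mice was 0.90 on the log2 scale and the number of members called fell from 1 to 0, as it did without a filter. The block changed no other call on a member. The number is only a counter: same-numbered mice are different animals, their deviations had correlations from -0.38 to 0.31 (36 pairs), and 1 of 24 libraries was nearest to its own number. DESeq2 called 1 pathway gene in males against 0, and each sex fitted on its own gave 1 member with an unadjusted p-value under 0.01 in females against 0. Of 45 pairs, 3 were called with all mice, 0 in males alone, 6 in females alone and 1 by Spearman's rho. The number of pairs ran from 0 to 4 with 1 mouse left out. It was 0 without mWT or mKO mouse 2, any fWT mouse or fKO mouse 2, 3, 5 or 6, and 1 without mWT mouse 3, mKO mouse 6 or fKO mouse 1.

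With 1 mouse left out, the members called ran from 1 to 2 in fWT against mWT (2 without mWT mouse 4) and from 0 to 1 in fKO against mKO, and those with an unadjusted p-value under 0.01 from 0 to 1 in fKO against fWT, from 1 to 2 in fWT against mWT and from 0 to 2 in fKO against mKO mice. Pathway genes called in fKO against mKO ran from 9 (without mKO mouse 5) to 16. Log2 fold changes that crossed 0 in at least 1 such case ran from -0.049 to 0.39 for Igfbp1 and -0.35 to 0.054 for Ppp1r3b in mKO against mWT. In fKO against fWT these were Irs1 (-0.0065 to 0.23), Pik3r1 (-0.047 to 0.11), Foxo1 (-0.014 to 0.24), Igfbp2 (-0.16 to 0.076) and Ppp1r3c (-0.048 to 0.49). For the difference of the KO effects they were Irs1 (-0.062 to 0.22), Akt2 (-0.049 to 0.0081), Igfbp1 (-0.47 to 0.0035) and Ppp1r3c (-0.024 to 0.51), in fWT against mWT Insr (-0.023 to 0.063) and Igfbp1 (-0.25 to 0.044), and in fKO against mKO Igfbp1 (-0.064 to 0.41). None of these was called in any setting. The cause of these changes was not tested, beyond the smaller number of mice. Of 420 log2 fold changes of single members under settings that kept all mice, 418 kept their direction and side of the threshold. With 6 mice a group, intervals of Igfbp1 and Ppp1r3c span more than 0.7 log2 units to each side.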
